A study of Mus musculus with 14 samples.

Results

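The Slc25a genes encode the mitochondrial carrier family. The members followed here were all genes whose mouse symbol is Slc25a with a number, leaving out Slc25a1, Slc25a20 and Slc25a44, whose FPKM (fragments per kilobase of transcript, scaled to the mapped fragments of a library) reached 1 in 3 or more of the 14 libraries. This rule kept 37 of the 48 Slc25a genes in the table, out of 35275 genes in all. It set 3 aside by name and 8 by level. The rule used the level over all libraries and no difference between groups.

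Most of the carriers are small proteins of the inner mitochondrial membrane, each built from repeats of the same folded unit. They move nucleotides, phosphate, metabolites, amino acids, cofactors and iron between the cytosol and the matrix. They are encoded in the nucleus, made in the cytosol, carried across the outer membrane and inserted into the inner membrane by the translocase known as TIM22. Brown adipose tissue burns fuel for heat through uncoupling protein 1 (Ucp1), itself a member of the same protein family under another symbol, and depends on these carriers to feed its mitochondria. Lrpprc, the gene deleted in the study, encodes a protein that binds and stabilises messenger RNA transcribed from mitochondrial DNA.

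The libraries came from the brown adipose tissue of 14 C57BL/6 mice at 8 weeks of age, 1 library per animal. Every animal carried the floxed allele (LrpprcFF), so the controls were floxed mice without Cre. The knockouts (LrpprcBKO) also carried Ucp1-Cre, which limits the deletion to cells that express or expressed Ucp1. Controls and knockouts were kept at room temperature (22 °C, 4 animals of each genotype) or at thermoneutrality (30 °C, 3 animals of each genotype). The labels name brown adipocytes, but RNA came from homogenized tissue, so other cells of the fat pad are in each library. In such bulk samples fewer cells of a type and less RNA per cell cannot be told apart.

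The libraries held 15.9 to 21.3 M fragments, as recovered from the steps of low FPKM values, so that 1 FPKM stood for 15.9 to 21.3 fragments per kilobase of transcript. Lrpprc itself was at 11.3 ± 1.35 FPKM in knockouts and 36.6 ± 11 in controls at 22 °C (SD, n = 4 each; exact two-sided permutation test, p = 0.0286). At 30 °C it was at 8.03 ± 1.99 FPKM in knockouts and 29.7 ± 1.23 in controls (SD, n = 3 each; exact p = 0.1, the smallest that 3 against 3 allow). Transcripts of mitochondrial DNA made up 21.8% to 28.5% of summed FPKM in controls and 2.04% to 5.34% in knockouts, so each library was scaled over nuclear genes. Unless FPKM is called deposited, the member values below are scaled FPKM, that is, the deposited value divided by a factor of 0.794 to 0.958 in controls and 1.03 to 1.22 in knockouts. Summed over the listed markers, deposited FPKM of 12 macrophage genes was 569 to 1802 in the knockouts at 30 °C, against 78.5 to 294 in their controls. At 22 °C the sum was 65.2 to 184 in knockouts and 36.2 to 51.4 in controls, so the genotypes did not overlap there either. None of the 12 was at 0 throughout a group. Lyz2 alone made up 389 to 1154 of the sum in the knockouts at 30 °C. Cd163 did not follow it, at 1.08 to 1.77 in those knockouts, 1.12 to 1.64 in their controls and 2.41 to 5.37 at 22 °C. The sum of 12 skeletal muscle markers ran from 73.1 to 15400 among the controls at 30 °C alone, with Tnnc2 at or near 0 in every library, and the sum of 10 brown adipocyte markers was 7961 to 10338 in the knockouts at 30 °C and 11852 to 19910 in the other libraries. All animals at 30 °C had the X-inactivation transcript Xist at 9.01 FPKM or more and the Y-linked gene Ddx3y at 0.0244 or less. All animals at 22 °C had Xist at 0.0141 or less and Ddx3y at 14.5 or more. Every comparison of temperatures, for any gene, is thus also one between animals with Ddx3y and animals with Xist, and temperature and sex cannot be told apart.

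The levels of the 37 carriers spanned a wide range: 8 had a mean deposited FPKM of at least 100, 13 lay between 10 and 100, and 16 were under 10. FPKM is a value per transcript length, so levels can be set side by side. The 5 carriers with the highest mean over all libraries, Slc25a5, Slc25a4, Slc25a39 and Slc25a51 among them, supplied 58.1% to 64.9% of the summed member FPKM, which was 1652 to 2346. The 5 highest of each library, which are not the same carriers in every library, supplied 60.6% to 67%.

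Slc25a5, the ADP/ATP carrier found in most tissues, stood at 381 ± 58.2 scaled FPKM in controls and 380 ± 24.8 in knockouts at 22 °C (SD, n = 4 each). At 30 °C it stood at 348 ± 47.2 in controls and 275 ± 42.5 in knockouts (SD, n = 3 each). Slc25a4, the ADP/ATP carrier of heart and muscle, was at 337 ± 84.5 and 229 ± 10.1 at 22 °C and at 402 ± 153 and 346 ± 67.1 at 30 °C, controls before knockouts. The SDs of these carriers overlapped within each temperature except for Slc25a4 at 22 °C. How the authors' counting shared reads between such related genes and their pseudogenes is not given in the sources used here.

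Slc25a39, a carrier needed for glutathione import, was at 227 ± 37.4 and 301 ± 64.4 scaled FPKM at 22 °C and at 240 ± 18 and 261 ± 57.8 at 30 °C, in the same order. Slc25a51 carries NAD+ into the matrix and is described with the genotype comparison, since it passed that test. Other roles were led by Slc25a11 (oxoglutarate/malate carrier, mean deposited FPKM 123), Slc25a3 (phosphate carrier, 109), Slc25a28 (mitoferrin 2, an iron carrier, 35.9), Slc25a35 (substrate unsettled, 28.3) and Slc25a30 (related to the uncoupling proteins, 3.21).

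**Figure D1:**
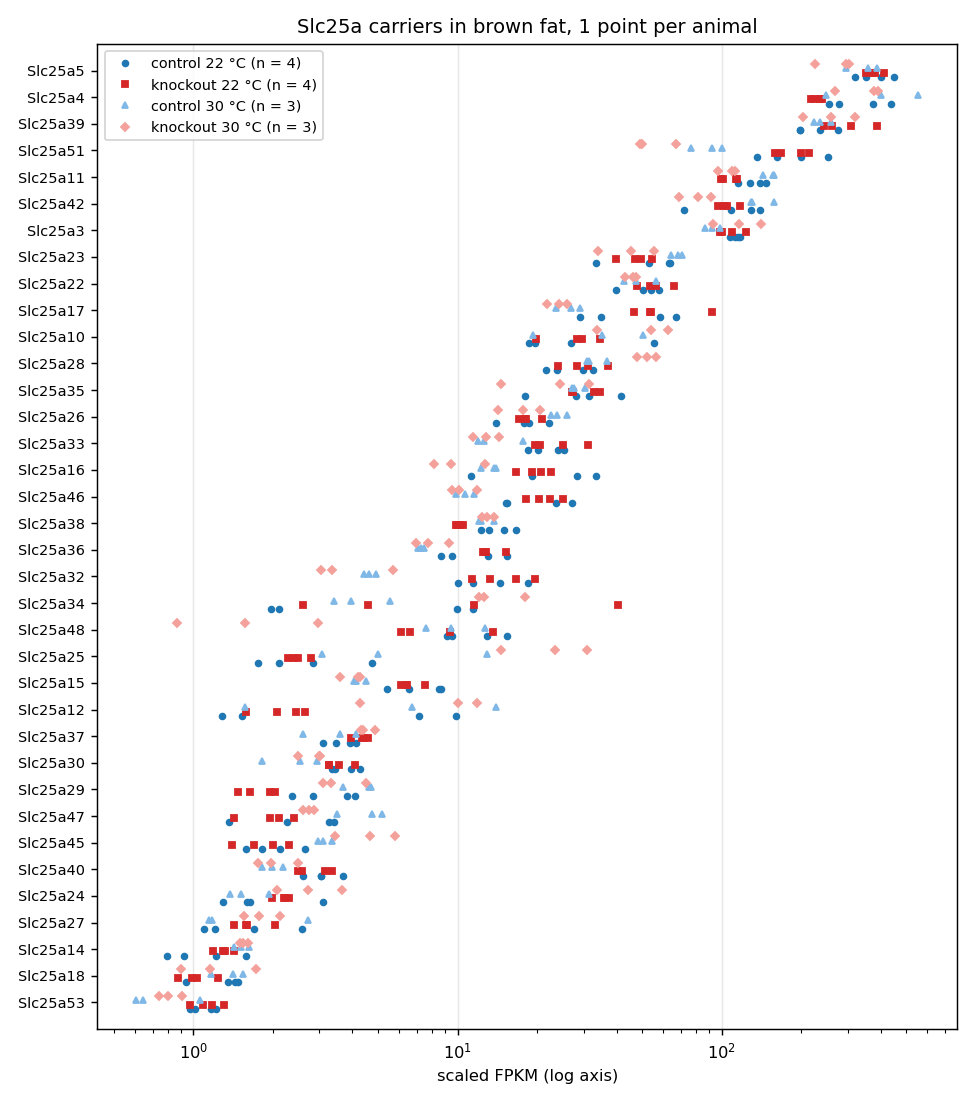
Scaled FPKM (log axis) of 36 Slc25a carriers, ordered by mean level, with 1 point per animal and the 4 groups by colour and shape. Slc25a5, Slc25a4 and Slc25a39 lie at the top, and Slc25a48, Slc25a25 and Slc25a34 show points far apart between animals.

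At the low end 33 of the 37 members were at 1 FPKM or more in all 14 libraries. Slc25a53, on the X chromosome, was the member nearest the level rule, with 7 libraries at 1 FPKM or more and a mean of 0.977. Slc25a13, an aspartate/glutamate carrier, fell just outside with 2 such libraries: its deposited FPKM was 1.74, 1.04 and 0.862 in the knockouts at 30 °C and 0.402 or less in the other libraries. Slc25a43 reached 1 FPKM in 1 library, a knockout at 30 °C with 1.75, and the other knockouts there had 0.482 and 0.785. The library with these 2 highest values was also the one with the highest sum of macrophage markers (1802) and of liver markers (173), whose part in the values was not tested.

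The genotype comparison asks which carriers differ when Lrpprc is deleted. At 22 °C, 1 of the 37 members passed the test (limma on log2 of scaled FPKM plus 1, Benjamini-Hochberg adjusted p under 0.05 over the 13079 genes tested), a lower one, where 1.83% of all genes tested passed and 0.979% were lower. The median log2 difference of the members was 0.01, against 0.00 over all genes tested. Without adjustment 5 members had p under 0.05, against 15.7% of all genes.

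The member that passed was Slc25a38, a glycine carrier needed for haem synthesis. Its scaled FPKM was 16.6, 13.2, 12.3 and 14.9 in the controls and 9.86, 9.95, 10.2 and 10.5 in the knockouts at 22 °C. All 4 knockouts lay below all 4 controls, and the knockouts lay close together. Slc25a38 fell by 0.45 on the log2 scale (SE 0.09, limma adjusted p = 0.0316). Over 27 other settings the adjusted p ran from 0.0121 to 0.186, and 11 of them ended the call, with FPKM as deposited among them (−0.17, adjusted p = 0.186). Leaving out any knockout at 22 °C, any control at 22 °C but the third, or the third control at 30 °C gave adjusted p from 0.0512 to 0.0987.

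Groups that did not overlap at 22 °C were found for 4 members, all lower in the knockouts, where 4.3% of all genes were lower without overlap and 9.07% did not overlap in either direction. Besides Slc25a38 these were Slc25a4, Slc25a11 and Slc25a29. Slc25a11 exchanges oxoglutarate for malate, and its scaled FPKM was 147, 140, 129 and 115 in controls and 114, 101, 114 and 99.7 in knockouts (limma adjusted p = 0.139). Slc25a29, a basic amino acid carrier named here after its values were seen, was at 4.11, 2.83, 3.82 and 2.35 in controls and at 1.64, 1.95, 2.04 and 1.48 in knockouts (limma adjusted p = 0.0572). Slc25a4 was at 278, 256, 436 and 376 in controls and at 218, 224, 239 and 236 in knockouts (limma adjusted p = 0.287). These counts depend on the scaling: with FPKM as deposited only Slc25a29 of the 4 was apart, and 7 members were apart in all, 6 higher and 1 lower, against 25.5% of all genes (24.8% higher, 0.619% lower). The 2 controls with the higher Slc25a4 values were those with muscle marker sums of 7398 and 4518, against 526 to 1907 in the other 6 libraries at 22 °C; the part of muscle in this difference was not tested.

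At 30 °C, 7 of the 37 members passed the test between genotypes, 2 higher and 5 lower in the knockouts. Of all genes tested 13.4% passed, 7.94% higher and 5.44% lower. The members' median was −0.06 on the log2 scale, against 0.04 over all genes. Groups did not overlap for 14 members, 6 higher and 8 lower, where 36.3% of all genes did not overlap (20.3% higher, 15.9% lower). With FPKM as deposited 16 members were apart, 12 higher and 4 lower, against 54.3% of all genes (50% higher, 4.29% lower). Of the members, 10 were apart in the same direction on both scales. Without adjustment 15 members had p under 0.05, against 27.6% of all genes. Among the carriers that passed were Slc25a25 and Slc25a28 among the higher ones and Slc25a48, Slc25a42, Slc25a51 and Slc25a11 among the lower ones.

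Slc25a48 is a carrier linked to choline. Its scaled FPKM was 7.57, 12.7 and 9.44 in the controls and 0.864, 2.95 and 1.57 in the knockouts at 30 °C. At 22 °C it was 12.9, 9.51, 15.4 and 9.13 in controls and 6.11, 6.63, 9.36 and 13.6 in knockouts. Thus the 3 knockouts at 30 °C lay below every other animal of the study, while the groups at 22 °C overlapped. The carrier fell by 2.01 on the log2 scale at 30 °C (SE 0.31, limma adjusted p = 0.00204), the member with the lowest adjusted p of that comparison, and it passed in all 27 other settings. At 22 °C the difference was −0.39 (SE 0.27, limma adjusted p = 0.524).

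The 250 bases before the Slc25a48 start (RefSeq, GRCm38.p6, chr13:56438105-56438354, plus strand) are shown because this carrier had the lowest adjusted p between genotypes. In this and the sequences below, capitals mark TGACGTCA, the palindromic cyclic AMP response element, and CCAAT on either strand (ATTGG on the printed strand). The Slc25a48 window holds neither.
Slc25a48: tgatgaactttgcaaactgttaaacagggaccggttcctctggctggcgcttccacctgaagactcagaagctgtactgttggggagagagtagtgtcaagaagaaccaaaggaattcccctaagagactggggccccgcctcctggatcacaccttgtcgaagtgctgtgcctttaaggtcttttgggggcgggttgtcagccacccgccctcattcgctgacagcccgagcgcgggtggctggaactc

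Slc25a25 is a calcium-regulated carrier that exchanges ATP-Mg for phosphate and so sets the adenine nucleotide content of the matrix. At 30 °C its scaled FPKM was 3.06, 12.9 and 5.01 in controls and 30.9, 14.6 and 23.4 in knockouts. The values at 22 °C were 1.76, 2.11, 4.73 and 2.84 in controls and 2.79, 2.4, 2.29 and 2.5 in knockouts. All 3 knockouts at 30 °C lay above every other animal, though the highest control (12.9) came close to the lowest knockout (14.6). The carrier rose by 1.72 on the log2 scale at 30 °C (SE 0.39, limma adjusted p = 0.0118), and 2 of 27 other settings ended the call: fitting only the groups compared (adjusted p = 0.0706) and leaving out the first knockout (0.0566). The knockouts at 30 °C also had the highest sums of macrophage markers, whose part in this difference was not tested. The Slc25a25 gene span overlaps that of Naif1 (mean FPKM 1.64) on the opposite strand. The use of strand in the counting is not given in the sources used here, and whether exons overlap was not examined. How far their reads were mixed is thus not known.

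One of the 3 RefSeq windows of Slc25a25 (chr2:32424067-32424316, minus strand) holds TGACGTCA, and so does that of Slc25a36 (chr9:97111042-97111291, minus strand), a pyrimidine nucleotide carrier. They are shown together since only these 2 members of the 29 with a window have it.
Slc25a25: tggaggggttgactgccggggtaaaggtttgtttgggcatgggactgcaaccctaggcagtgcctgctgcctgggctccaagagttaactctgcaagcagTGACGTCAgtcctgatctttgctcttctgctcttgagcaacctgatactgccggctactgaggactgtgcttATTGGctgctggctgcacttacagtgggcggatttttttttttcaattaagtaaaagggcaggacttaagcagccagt
Slc25a36: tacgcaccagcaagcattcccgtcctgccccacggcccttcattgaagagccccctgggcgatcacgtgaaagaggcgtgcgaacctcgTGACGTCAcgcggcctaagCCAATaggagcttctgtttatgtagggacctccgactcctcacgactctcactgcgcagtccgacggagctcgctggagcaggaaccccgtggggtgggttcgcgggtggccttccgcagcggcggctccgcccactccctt

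Of these 2, Slc25a25 passed the test between genotypes and Slc25a36 did not. Slc25a36 was at 7.47, 7.25 and 7.07 scaled FPKM in the controls and 7.73, 9.32 and 6.96 in the knockouts at 30 °C, groups that overlapped (log2 difference 0.12, SE 0.18, limma adjusted p = 0.727). TGACGTCA, read on both strands, was in 2 of the 38 windows of members (5.26%), each 250 bases before to 50 after a start, and in 1.79% of the 32851 windows of all genes. The latter were not limited to genes that met the level rule, so the 2 shares are of unlike sets. A match is a description of the letters and not a bound site.

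Slc25a28, mitoferrin 2, brings iron into the matrix for haem and iron-sulphur clusters. At 30 °C its scaled FPKM was 36.8, 31.6 and 30.9 in controls and 52.4, 48 and 56.3 in knockouts. Every knockout at 30 °C was above every other animal, since the animals at 22 °C ran from 21.7 to 37.2. Slc25a28 rose by 0.64 on the log2 scale (SE 0.17, limma adjusted p = 0.0232), and 4 of 27 other settings ended the call, those without the second or the third control, or the first or the third knockout, at 30 °C (adjusted p up to 0.0897). Slc25a37, mitoferrin 1, was at 3.58, 2.59 and 4.13 in controls and 4.37, 4.86 and 4.3 in knockouts at 30 °C, apart but with a limma adjusted p of 0.128.

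Slc25a42 brings coenzyme A into the matrix. At 30 °C its scaled FPKM was 129, 158 and 130 in controls and 69.2, 91 and 81.3 in knockouts. Genotypes overlapped at 22 °C, where controls had 140, 129, 109 and 72.3 and knockouts 105, 96.9, 118 and 102. At 30 °C the fall was of 0.78 on the log2 scale (SE 0.20, limma adjusted p = 0.0215). With FPKM as deposited the difference was −0.46 (adjusted p = 0.059), which ended the call, and so did leaving out the first knockout (0.0948), the third (0.0617) or the second control (0.0918).

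Slc25a51, the NAD+ carrier, was at 76.7, 101 and 91.6 scaled FPKM in the controls and at 49.3, 67.4 and 49.7 in the knockouts at 30 °C. The groups did not overlap, and the fall of 0.69 on the log2 scale (SE 0.21, limma adjusted p = 0.0444) lay near the threshold. Over 27 other settings the adjusted p ran from 0.00314 to 0.155, and the call was lost in 14 of them. One of these added a skeletal muscle marker score to the fit (−0.59, adjusted p = 0.0741), and leaving out any control, or the first or the third knockout, at 30 °C gave adjusted p up to 0.155. Leaving out the second or the third control, or any knockout but the first, at 22 °C gave adjusted p up to 0.0563.

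Slc25a11 was at 158, 156 and 144 scaled FPKM in controls and at 97.2, 112 and 109 in knockouts at 30 °C. Its knockout values at the 2 temperatures lay in the same range, while every control at 30 °C was higher than 3 of the 4 controls at 22 °C. It fell by 0.52 on the log2 scale at 30 °C (SE 0.11, limma adjusted p = 0.00974), and the difference with FPKM as deposited was −0.20 (adjusted p = 0.149), which ended the call. Slc25a11 overlaps Rnf167 on the opposite strand.

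Promoter windows of Slc25a42 (chr8:70212282-70212531, minus strand) and Slc25a28 (chr19:43674882-43675131, minus strand), carriers that moved in opposite directions at 30 °C, are shown for their repeated CCAAT boxes, 5 and 3.
Slc25a42: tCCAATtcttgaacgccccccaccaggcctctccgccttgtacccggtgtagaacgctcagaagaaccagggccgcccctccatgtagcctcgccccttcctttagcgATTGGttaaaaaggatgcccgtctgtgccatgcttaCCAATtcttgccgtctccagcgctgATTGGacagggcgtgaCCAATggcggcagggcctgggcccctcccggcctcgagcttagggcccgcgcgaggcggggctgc
Slc25a28: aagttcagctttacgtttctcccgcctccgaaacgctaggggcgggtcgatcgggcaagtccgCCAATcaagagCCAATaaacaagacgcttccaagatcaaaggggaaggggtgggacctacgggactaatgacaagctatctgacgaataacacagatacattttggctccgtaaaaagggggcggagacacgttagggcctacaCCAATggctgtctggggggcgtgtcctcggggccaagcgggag

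CCAAT was in 19 of the 38 member windows (50%) and in 37.4% of all windows, so the box itself is common, and here it stood before a carrier that fell and one that rose. The GC box GGGCGG was in 34 of the 38 (89.5%) against 35.7% of all. All windows were taken without the level rule that the members had to meet, so for every motif these shares compare unlike sets. The other motifs searched on both strands were less common in member windows or rested on at most 5 of them. AGGTCA, a nuclear receptor half-site, was in 4 (16.3% of all windows), CCGGAAG of GABP in 5 (8.86%), CACGTG in 5 (7.15%), AAGATGGC of YY1 in 1 (2.75%) and the NRF1 element with 1 free base in 1 (4.6%). No member window held TNAAGGTCA of the oestrogen-related receptors (1.28%), TGATGNAA of ATF4 (3.97%) or the NRF1 element without the free base (0.971%). TNAAGGTCA contains AGGTCA, and the form of the NRF1 element with a free base includes the other, so these pairs overlap.

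**Figure D2:**
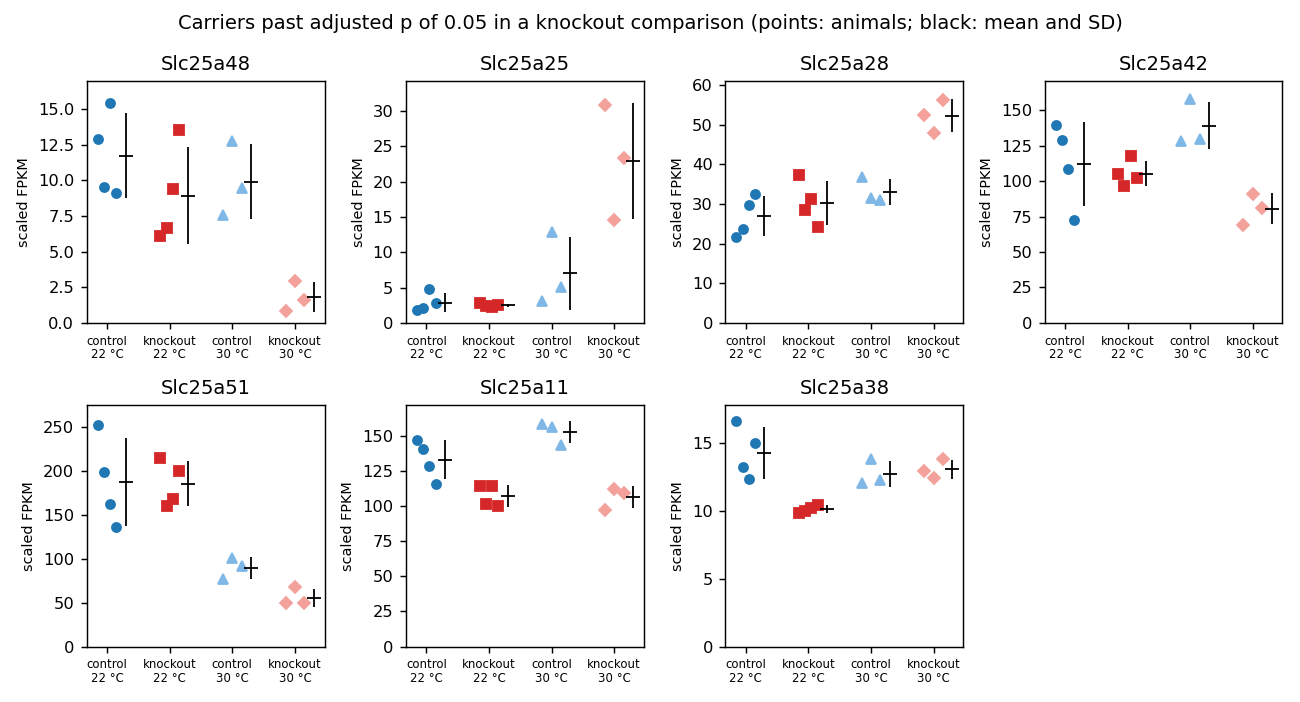
Scaled FPKM of 7 carriers that passed the test between genotypes at either temperature, with 1 point per animal and the mean and SD of each group in black. Slc25a48, Slc25a42, Slc25a51 and Slc25a11 are lower and Slc25a25 and Slc25a28 higher in the knockouts at 30 °C, and Slc25a38 is lower in the knockouts at 22 °C.

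By role, the nucleotide and cofactor carriers, which are also the largest group, had the most members past the test at 30 °C, though not the largest share. Of the 9, 8 had a value below 0 and 3 passed, all lower, Slc25a42 and Slc25a51 among them, where 44.6% of all genes were below 0, 13.4% passed and 5.44% passed as lower. The median of the 9 was −0.39, against 0.04 over all genes. With FPKM as deposited 5 of the 9 were below 0, 1 passed and the median was −0.09, where 17.5% of all genes were below 0. The brown adipocyte marker sum was also lowest in the knockouts at 30 °C (7961 to 10338), and its part in these values was not tested. Fabp4 made up 4352 to 6308 of that sum, and not every gene of the list was lower: Ppargc1a was at 4.09 to 5.17 deposited FPKM in those knockouts and at 2.55 to 3.89 in their controls, and Plin1 at 966 to 1051 and at 885 to 979. Of the 2 iron carriers 1 passed, Slc25a28, and of the 2 di- and tricarboxylate carriers 1, Slc25a11 (50% each, against 33.3% of the nucleotide and cofactor carriers). Of the 4 phosphate and ATP-Mg carriers 1 passed, Slc25a25. Of the 8 amino acid and glutathione carriers 0 passed by limma at 30 °C, and 0 had an unadjusted p under 0.05. The smallest adjusted p among them was 0.49.

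**Figure D3:**
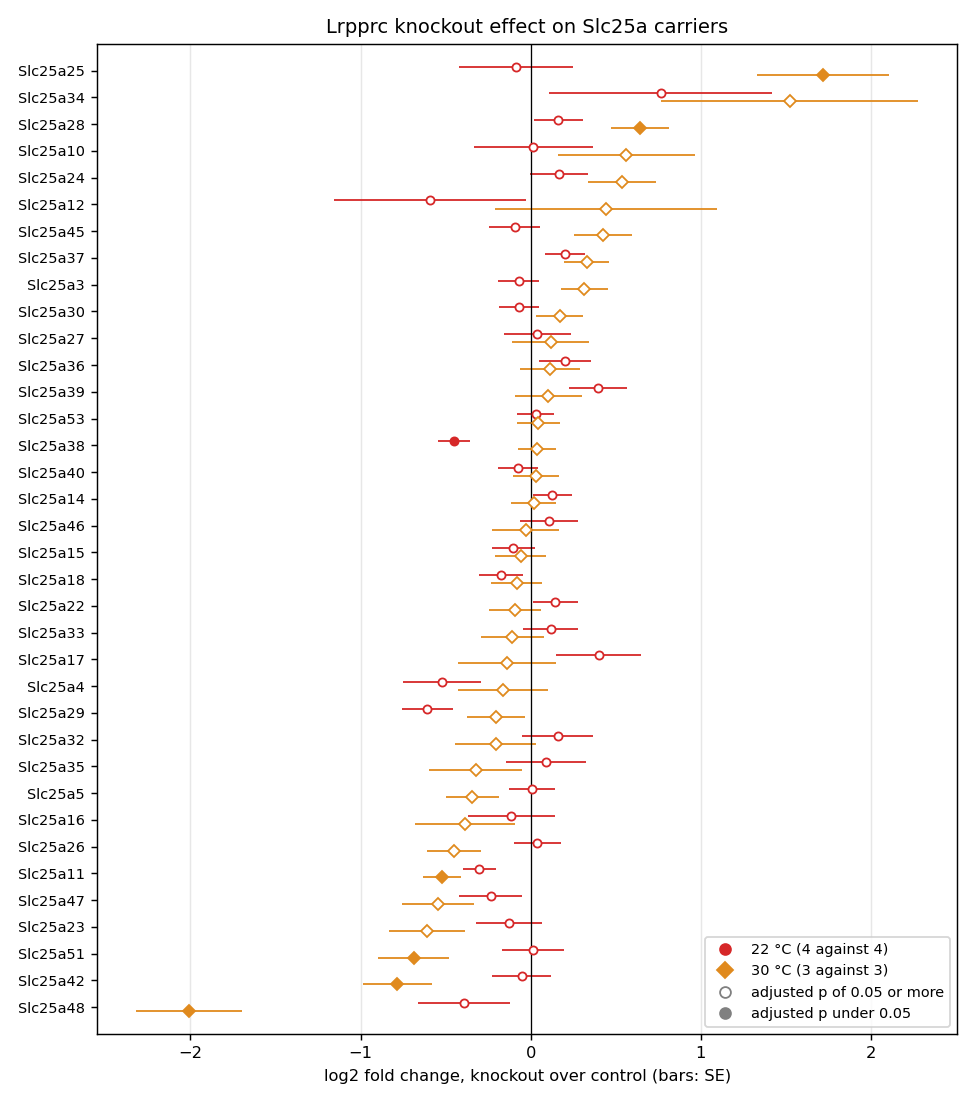
Log2 fold change of knockout over control for 36 carriers at 22 °C (circles, 4 against 4) and at 30 °C (diamonds, 3 against 3), with bars of 1 SE and filled symbols for an adjusted p under 0.05. The filled symbols are 1 circle, Slc25a38, and 6 diamonds, from Slc25a48 at −2.01 to Slc25a25 at 1.72.

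The size of the knockout effect was compared between the temperatures in the same fit. The difference between the effects passed for 0 of 37 members by limma, against 0.0688% of all genes, while 9 members had an unadjusted p under 0.05, against 12.4% of all genes. Weighting the libraries by quality in limma made 1 member pass, Slc25a48, and so did leaving out the second knockout at 30 °C. Of all genes 1.4% and 1.18% passed in these settings. Slc25a48 had a difference of 1.61 (SE 0.41, limma adjusted p = 0.202), Slc25a25 of −1.81 (SE 0.51, limma adjusted p = 0.212) and Slc25a38 of −0.49 (SE 0.14, limma adjusted p = 0.221), each given as the effect at 22 °C minus that at 30 °C. So no member was shown to respond to the deletion differently at the 2 temperatures, although different members passed at each. Temperature and sex cannot be told apart in this comparison of effects either. All 9 nucleotide and cofactor carriers had a positive difference, with a median of 0.49, where 45.7% of all genes were positive.

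The housing comparison asks which carriers differ between room temperature, a mild cold stress for a mouse, and thermoneutrality. The animals of the 2 temperatures also differ in sex, as given above. In the controls 12 of 37 members passed, 9 higher and 3 lower at 22 °C, where 38.6% of all genes passed (19.6% higher, 19% lower). In the knockouts 16 passed, 11 higher and 5 lower at 22 °C, where 51.5% of all genes passed (24.8% higher, 26.8% lower). Groups did not overlap for 13 members in controls and 23 in knockouts, against 43.3% and 56.1% of all genes. Medians were 0.05 and 0.10 against −0.02 over all genes in each. The shares of members that passed, 32.4% and 43.2%, were near those of all genes, and with FPKM as deposited they were 40.5% and 43.2% against 37.8% and 51.2%. The split was then 7 higher and 8 lower in controls and 9 higher and 7 lower in knockouts, while the median of all genes moved to −0.13 and −0.16.

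Slc25a32 carries folate and FAD into the matrix. Its scaled FPKM was 18.5, 14.4, 10.01 and 11.4 in controls at 22 °C and 4.64, 4.41 and 4.91 in controls at 30 °C. In knockouts it was 16.6, 11.3, 13.2 and 19.6 at 22 °C and 3.34, 5.68 and 3.05 at 30 °C. All animals at 22 °C were above all at 30 °C, in both genotypes. It was higher at 22 °C by 1.33 on the log2 scale in controls (SE 0.22, limma adjusted p = 0.0011) and by 1.70 in knockouts (SE 0.22, limma adjusted p = 0.000113).

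Slc25a51 was at 252, 199, 162 and 136 scaled FPKM in controls and at 215, 159.7, 168 and 199.5 in knockouts at 22 °C. Set beside its values at 30 °C given above, from 49.3 to 101, the temperatures did not overlap in either genotype. The NAD+ carrier was higher at 22 °C by 1.03 (SE 0.20, limma adjusted p = 0.00206) in controls and by 1.73 (SE 0.20, limma adjusted p = 5.47e-05) in knockouts, on the log2 scale.

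Slc25a17, a peroxisomal carrier of coenzyme A and other nucleotide cofactors, was at 67.1, 58.3, 35.1 and 29.1 in controls at 22 °C and at 23.6, 29.1 and 27 in controls at 30 °C. Knockouts had 91.7, 54, 46.7 and 53.7 at 22 °C and 21.8, 25.9 and 24.2 at 30 °C. The knockouts were apart by temperature, and the lowest control at 22 °C and the highest at 30 °C were both near 29.1. The difference was 1.28 in knockouts (SE 0.27, limma adjusted p = 0.0019) and 0.74 in controls (SE 0.27, limma adjusted p = 0.0453), the latter lost in 14 of 27 other settings, among them those without any 1 control or any 1 knockout at 30 °C, the first or the second control at 22 °C, or the second or the fourth knockout at 22 °C (adjusted p up to 0.129).

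Slc25a46, an outer membrane protein of mitochondrial dynamics, and Slc25a15, an ornithine carrier, were also higher at 22 °C. Slc25a46 ran from 15.3 to 27 scaled FPKM in controls and 18.2 to 25.1 in knockouts at 22 °C, and from 9.51 to 11.8 in all animals at 30 °C. Slc25a15 ran from 5.4 to 8.64 at 22 °C and from 3.6 to 4.5 at 30 °C over both genotypes, again with no overlap. The log2 differences of Slc25a46 were 0.83 in controls (SE 0.18, limma adjusted p = 0.00436) and 0.96 in knockouts (SE 0.18, limma adjusted p = 0.00099). Those of Slc25a15 were 0.64 (SE 0.14, limma adjusted p = 0.00372) and 0.60 (SE 0.14, limma adjusted p = 0.00308). The Slc25a46 gene overlaps B930094E09Rik on the opposite strand (mean FPKM 1.32).

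Lower at 22 °C was Slc25a25 in the knockouts, with a difference of −2.72 (SE 0.36, limma adjusted p = 0.000122), while in controls it was −0.91 (SE 0.36, limma adjusted p = 0.0604). Slc25a48 was higher at 22 °C in the knockouts by 1.83 (SE 0.29, limma adjusted p = 0.000339), against 0.22 in the controls (limma adjusted p = 0.574). These comparisons use the same knockouts at 30 °C as the genotype comparison above and are not separate evidence for it.

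Slc25a45, whose substrate is unsettled, was lower at 22 °C in both genotypes. Its scaled FPKM was 1.58, 2.13, 1.82 and 2.63 in controls at 22 °C and 2.97, 3.09 and 3.35 at 30 °C, and in knockouts it was 1.69, 2.29, 2 and 1.4 at 22 °C and 5.78, 3.44 and 4.65 at 30 °C. The temperatures were apart in each genotype (log2 differences −0.45 and −0.97, limma adjusted p = 0.039 and 0.000418). Slc25a47, a carrier best known from liver, was lower at 22 °C in controls by 0.65 on the log2 scale (SE 0.20, limma adjusted p = 0.0215). Slc25a26, which imports S-adenosylmethionine, differed by −0.40 in controls (SE 0.15, limma adjusted p = 0.0449) and lost the call in 14 of 27 other settings, among them those without any 1 control at 30 °C, the third knockout at 30 °C, or any 1 animal at 22 °C other than the first of each genotype (adjusted p up to 0.145). Without the 2 controls whose identifiers begin with R it was at −0.23 (adjusted p = 0.213). The Slc25a26 gene span overlaps that of Lrig1 on the opposite strand, whose mean FPKM was 15.4 beside 19.5 for Slc25a26. Whether exons overlap was not examined, so how far their reads were mixed is not known. The control call of Slc25a45 was lost without any 1 control at 30 °C or any 1 at 22 °C but the fourth (adjusted p up to 0.11). That of Slc25a47 was lost without the first or the second control at 22 °C, or the first or the third at 30 °C (adjusted p up to 0.0838). Slc25a28, Slc25a29 and Slc25a38 were lower at 22 °C in the knockouts, with log2 differences of −0.78, −0.73 and −0.33 (limma adjusted p = 0.00142, 0.00235 and 0.0153). The call of Slc25a38 was lost without the third knockout at 30 °C (adjusted p = 0.0643). The genotype calls above used the same knockouts, those at 30 °C for Slc25a28 and those at 22 °C for Slc25a38. For these carriers the temperature result is thus not separate evidence either.

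**Figure D4:**
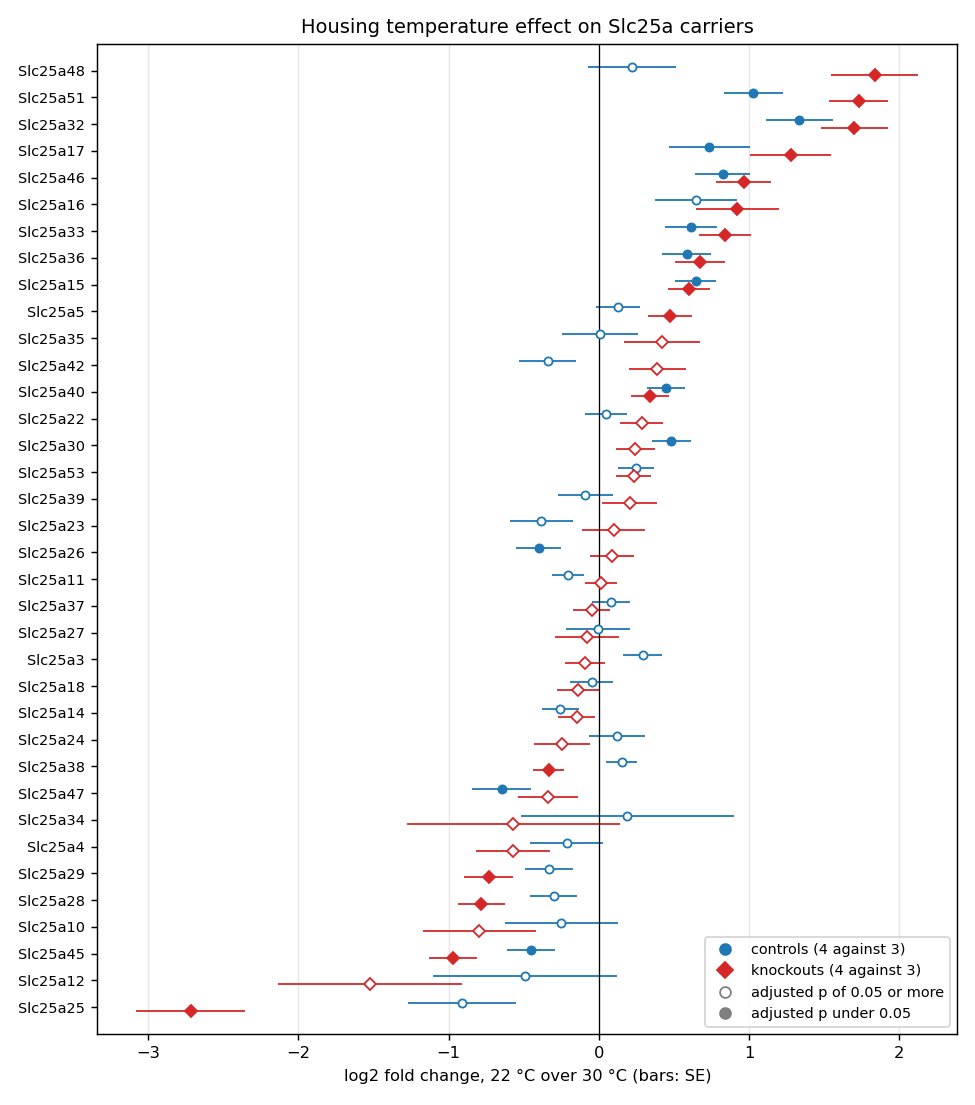
Log2 fold change of 22 °C over 30 °C for 36 carriers in controls (circles, 4 against 3) and in knockouts (diamonds, 4 against 3), with bars of 1 SE and filled symbols for an adjusted p under 0.05. Slc25a48 at the top is at 1.83 in the knockouts but at 0.22 with an open symbol in the controls. Slc25a51 and Slc25a32 below it are higher at 22 °C in both genotypes, and Slc25a25 at −2.72 in the knockouts is the lowest.

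Among the 9 nucleotide and cofactor carriers, 6 were higher at 22 °C in controls, with 5 higher and 1 lower past the test, where 38.6% of all genes passed (19.6% higher). In knockouts 9 of 9 were higher and 6 passed, where 51.5% of all genes passed (24.8% higher), with 8 of 9 higher when FPKM was used as deposited. Their medians were 0.61 and 0.84, against −0.02 over all genes in both genotypes. The 3 members on the X chromosome, Slc25a5, Slc25a14 and Slc25a53, differed by 0.13, −0.26 and 0.25 between temperatures in controls, with none past the limma test. In knockouts they differed by 0.48, −0.15 and 0.23, and Slc25a5 passed as higher at 22 °C (limma adjusted p = 0.0157).

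A further 5 genes of the family carry other symbols (Ucp1, Ucp2, Ucp3, Mtch1 and Mtch2). Ucp1 was at 299, 433 and 370 deposited FPKM in the knockouts and at 532, 996 and 738 in the controls at 30 °C. It fell by 1.33 on the log2 scale (SE 0.37, limma adjusted p = 0.031), and an exact permutation test on deposited FPKM gave its smallest possible p, 0.1. The limma call was lost with quantile normalization (−1.04, adjusted p = 0.16), with no filter on low values (0.0671), and without the second or the third control or the first or the third knockout at 30 °C (adjusted p up to 0.127). At 22 °C the difference was −0.02 (limma adjusted p = 0.982). Ucp2 and Ucp3 did not pass between genotypes at 30 °C (0.80, limma adjusted p = 0.0961, and −0.59, limma adjusted p = 0.116), and Mtch2, an outer membrane relative of the carriers, fell by 0.56 (limma adjusted p = 0.0459). The Ucp2 and Mtch2 results turn on the scaling. With FPKM as deposited Mtch2 was at −0.24 (adjusted p = 0.23) and Ucp2 passed as higher (1.12, adjusted p = 0.0174), and at an equal nuclear total they were at −0.38 (adjusted p = 0.128) and 0.98 (adjusted p = 0.0358). The Mtch2 call was also lost without any 1 control or the first or the third knockout at 30 °C (adjusted p up to 0.173), or without any 1 knockout at 22 °C (up to 0.0603). Thus 2 of the 5 passed at 30 °C, where 13.4% of all genes did. By temperature all 5 passed in the knockouts, 3 higher and 2 lower at 22 °C, where 51.5% of all genes passed.

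Carrier proteins reach the inner membrane through the TIM22 route. Of its 7 listed genes, 7 had a value below 0 between genotypes at 30 °C and 1 passed, Timm9, a small chaperone of the intermembrane space (−0.75, SE 0.15, limma adjusted p = 0.0059), where 44.6% of all genes were below 0 and 13.4% passed. With FPKM as deposited 4 of the 7 were above 0. By temperature 4 passed in controls and 5 in knockouts, all higher at 22 °C, where 19.6% and 24.8% of all genes passed as higher. Of 17 other mitochondrial transporters 0 passed by limma between genotypes at either temperature, with 3 and 6 at an unadjusted p under 0.05, against 15.7% and 27.6% of all genes. By temperature 6 of the 17 passed in controls (35.3%) and 10 in knockouts (58.8%), near the 38.6% and 51.5% of all genes.

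The muscle markers were set beside 3 carriers, chosen for display after their values were seen. In the controls at 30 °C the summed deposited FPKM of 12 muscle markers was 15400, 5199 and 73.1. Across these animals Slc25a12, the aspartate/glutamate carrier aralar, was at 13.4, 6.33 and 1.5 deposited FPKM and Slc25a4 was at 530, 377 and 239. Slc25a10, the dicarboxylate carrier, was at 48, 33.2 and 18.5. The 3 carriers kept the order of the muscle sum within that group, but not in every group. In the knockouts at 30 °C, with sums of 11457, 2997 and 9226, Slc25a12 and Slc25a10 kept it and Slc25a4 did not (438, 329 and 467). In the controls at 22 °C Slc25a12 and Slc25a4 kept it and Slc25a10 did not, with 16.5 at a sum of 526 and 14.8 at 640. None of the 3 strictly kept it in the knockouts at 22 °C, where the sums ran from 783 to 1907. Slc25a12 missed it only by 2.709 at a sum of 1626 and 2.707 at 1907. None of them passed in a knockout comparison, and the share of their level that came from muscle was not tested.

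**Figure D5:**
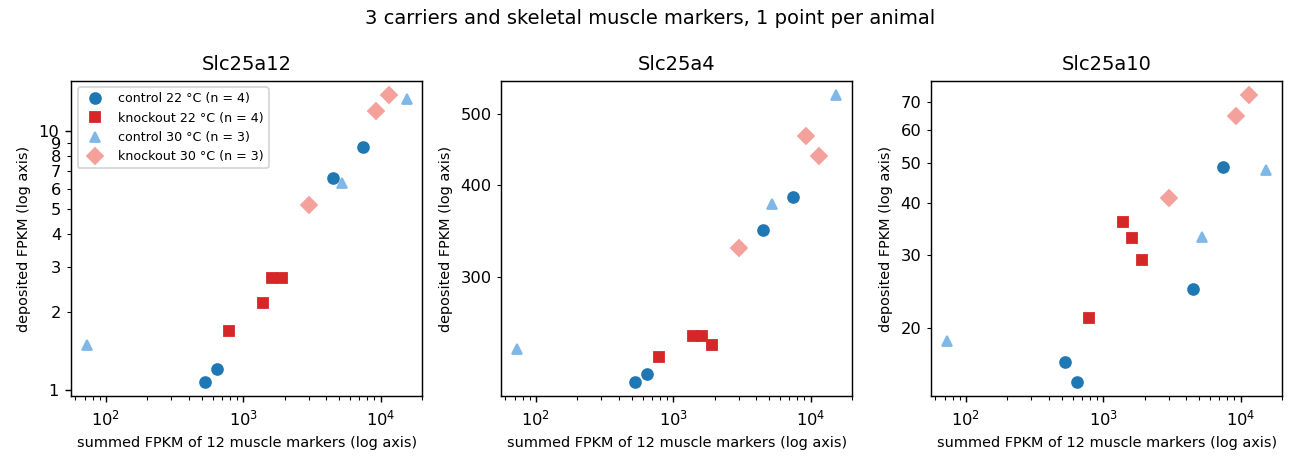
Deposited FPKM of Slc25a12, Slc25a4 and Slc25a10 against the summed deposited FPKM of 12 skeletal muscle markers (both log axes), 1 point per animal. Within the controls at 30 °C the values run from 1.5 to 13.4 for Slc25a12, from 239 to 530 for Slc25a4 and from 18.5 to 48 for Slc25a10 as the marker sum runs from 73.1 to 15400.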

How the data were processed

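RNA-seq libraries of 14 mice in 4 groups were used, each animal a replicate. The authors deposited 1 table of FPKM values per gene and animal; the genome build mm9 is named in the submitters' processing notes, and the aligner, counting tool, annotation and use of strand are not given in the sources used here. Gene symbols came from GENCODE M21 (34490 of 35275 genes matched), and RefSeq promoter windows belong to GRCm38.p6, another build than the files'. Windows were found for 29 of the 37 members.

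Libraries were divided by their median ratio to the geometric mean over 12046 nuclear genes (above 0 in all libraries, mean FPKM at least 1), and 13079 genes with FPKM of at least 1 in at least 3 libraries were tested on log2(scaled FPKM + 1). This pseudocount understates the change of low genes. A mean per group was fitted with limma 3.58.1 (R 4.3.3; lmFit, eBayes with trend), two-sided, with Benjamini-Hochberg adjustment over all genes of a comparison and a threshold of 0.05; the fit was tested on simulated data. Exact permutation tests were used for Lrpprc and Ucp1. Depth (15.9 to 21.3 M fragments) was read from the steps of low values, of which 88.5% to 90.5% lay within 0.02 of whole reads; it covers counting error only.

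Members and gene lists were chosen with earlier results of these data known. The motifs, the windows printed, 1 scaling alternative, the overlap of groups on deposited values and the settings tried for genes beside the members were chosen after results were seen. Named in the text are members past a knockout test, the 5 largest changes per direction and temperature comparison, the 5 highest levels, the 3 smallest p for the difference between knockout effects, the highest of each role, those next to the level rule, and Lrpprc, Ucp1, Ucp2 and Ucp3. The values of 1 carrier are not reported here and it is left out of the figures, though counts over the members include it. Alternatives were other scalings, pseudocounts, filters, fits, weights, a muscle score as covariate, and leaving out animals.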

Additional observations from a re-analysis of the deposited data

Results flagged for a closer look

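In the groups of 4 animals, a value was singled out when its gap to the nearest other was a larger part of the group's range than Dixon's 95% limit for 4 values allows. Chance gives about 1 such group in 20, and 74 groups were examined. On scaled FPKM there were 2. Slc25a17 was at 91.67 in the first knockout at 22 °C, with the others at 46.66 to 53.99. Slc25a36 was at 15.22 in the fourth knockout at 22 °C, with the others at 12.52 to 12.81. On FPKM as deposited there was 1 group and it was another: Slc25a24 at 2.849 in the fourth control at 22 °C, with the others at 1.143 to 1.374. The deposited values were examined first, and the scaled values were added afterwards to match the scale of the tests, so which animals stand out depends on that choice.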

How the results depend on the processing

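Calls between genotypes rested on few animals and on the scaling. At 22 °C the count of 1 member became 2 with a pseudocount of 0.1, 3 with sample weights, 0 with the same total over nuclear genes, with only the groups compared, or with an absolute log2 difference of at least 1, and 0 to 1 with an animal left out. With FPKM as deposited it became 5, all higher and none shared, while the median of all genes moved to 0.24. At 30 °C the 7 became 12 with sample weights, 11 without the controls with R identifiers, and 2 with a log2 difference of at least 1. Of all genes 27.4% passed with sample weights and 18.1% without those controls. Leaving out an animal gave 2 to 12: 2 without the first knockout, 12 without the second, 3 without the third and 4 without the second control. In the same order, 6.54%, 16.3%, 7.16% and 6.59% of all genes passed. FPKM as deposited gave 10, 8 higher and 2 lower, with the median of all genes at 0.31, and the same nuclear total gave 10, 6 higher and 4 lower.

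By temperature, the 12 of the controls became 20 with sample weights, 2 with a log2 difference of at least 1 and 7 to 13 with an animal left out, 7 without the second control at 30 °C. Of all genes 57.4% passed in controls with sample weights and 26.5% without that animal. The 16 of the knockouts became 5 with a log2 difference of at least 1 and 13 to 19 with an animal left out. The difference between knockout effects gave 1 with sample weights, where 1.4% of all genes passed, and 0 to 1 with an animal left out. The cause of these shifts was not tested.

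Knockout Lrpprc at 22 °C was 27.5% to 34.1% of control with an animal left out, and p was 0.0571 without a knockout. Knockout Ucp1 at 22 °C was 123% of control (exact p = 0.543), 96.2% without the first knockout and 96.2% to 142.7% over all animals left out. No paired analysis was possible because the labels give each animal its own identifier and no shared replicate number. Low depth limits the carriers near 1 FPKM.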

Other observations

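Slc25a34, a carrier of unsettled substrate, had the widest range of the members between animals (highest over lowest 20.6), and was singled out after its values were seen. Its scaled FPKM was 40.5, 11.5, 2.6 and 4.59 in the knockouts and 9.95, 11.5, 2.1 and 1.97 in the controls at 22 °C. At 30 °C it was 18.1, 12.1 and 12.5 in knockouts and 5.55, 3.94 and 3.41 in controls, groups that did not overlap. The difference at 30 °C was 1.52 on the log2 scale (SE 0.76) and did not pass (limma adjusted p = 0.213).

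The 4 controls at 22 °C were spread by the first letter of their identifiers for several carriers, some higher with E and some with R. Slc25a16, linked to coenzyme A, was at 33.6 and 28.3 scaled FPKM in those with E and at 19.2 and 11.2 in those with R. Slc25a35 was at 41.4 and 31.4 in those with E and at 28 and 18 in those with R. Their muscle marker sums were 640 and 526 with E and 7398 and 4518 with R, and what the letters stand for is not given in the labels. With 2 animals of each, no test was made. Slc25a4 and Slc25a28 went the other way. Slc25a4 was at 278 and 256 in the controls with E and at 436 and 376 in those with R. Slc25a28 was at 21.7 and 23.8 with E and at 29.8 and 32.5 with R. How many carriers, or how many of all genes, were spread in this way was not counted. All knockouts at 22 °C had E, so the letters also bear on the genotype comparison there.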
